A study of Mus musculus with 17 samples.

Results

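The genes described here encode the parts that hold epithelial cells together and give them a top and a bottom: cadherins, claudins, tight junction proteins and adaptors, polarity proteins, desmosomal proteins, connexins, membrane serine proteases with their inhibitors, and factors that direct epithelial splicing and transcription. The list has 39 genes, all of which were found by Ensembl ID in both deposited tables, among the 33440 gene IDs that the tables share. Of these 39, 24 reached 1 RPM (reads of the gene per 1000000 reads of the group) in at least 1 of 7 groups of cultures and are described by their values. The other 15 stayed under 1 RPM in every group.

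All cultures were mouse embryonic fibroblasts (MEFs) of the strain C57bl/6 from day E13.5, immortalized with pRetroSuper-shp19ARF, a retrovirus against p19ARF that the controls carry too. Usp28, which encodes a deubiquitinase, was intact (+/+), heterozygous (+/-) or deleted (-/-). The immortalized set held 3 libraries for each genotype. The Ras set held 2 libraries for each of 4 groups, all transformed with activated HRas (pBabe-HRasG12V). Of these groups +/+, +/- and -/- carried pWZL-GFP, and +/+ cells labelled as overexpressing USP28 carried pWZL-USP28. The design text calls the immortalized libraries biological triplicates and the Ras libraries duplicates. The labels do not say whether they came from separate embryos or cultures. The p-values therefore rest on the spread between these libraries, taken as shared by all genes of a comparison. The authors' tables hold comparisons and no values for single libraries, so each value below is a group level, read from the table of its own set. The sets were normalized separately, and levels are compared within a set.

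The libraries of a group together held 11.4 to 13.95 M reads (M, 1000000). The gene-level reads of Usp28 itself were 16.5 RPM in immortalized +/+, 9.96 in +/- and 13.3 in -/-, and 26.5, 18.6 and 14.8 RPM in the same order in the Ras set. The cells labelled as overexpressing USP28 gave 26.4 RPM. Which exons were deleted, and of which species the USP28 insert is, is not given in the sources used here, so these levels do not check the labels. Fibroblast genes were abundant in every group: the 8 listed (Col1a1, Col1a2, Col3a1, Pdgfra, Pdgfrb, Thy1, Fn1 and Vim) summed to 9770 to 45121 RPM, although Thy1 was at 0 to 0.502 RPM in the Ras groups. Xist, expressed from the inactive X chromosome of female cells, ran from 0.215 RPM in Ras -/- to 336 in Ras +/+. The Y-linked Eif2s3y had 0 to 0.151 RPM in immortalized +/- and in Ras +/+, +/- and USP28, against 14.9 to 22.4 RPM in the other 3 groups. Ddx3y, also Y-linked, was at 7.89 to 13.3 RPM where Eif2s3y was near 0, and at 38.3 to 57.5 RPM in the other 3. Immortalized +/+ and -/- had Xist at 89.7 and 126 RPM besides Eif2s3y, so these reads do not give every group a single sex. Xist was at 25.5 RPM in Ras +/-. In immortalized +/- against +/+, in Ras -/- against +/+ and in -/- against +/- of both sets, Eif2s3y differed with the genotype. Embryo sex and genotype therefore cannot be told apart there. In Ras +/- against +/+ Eif2s3y was near 0 on both sides, Ddx3y was at 12.4 and 10.7 RPM, and Xist alone differed. What that difference in Xist stands for was not tested, and it cannot be told apart from genotype.

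In an epithelium, cadherins of neighbouring cells bind each other at the adherens junction, and claudins, occludin and JAM proteins seal the space between cells at the tight junction, where ZO proteins and cingulin tie them to actin. Desmosomes, built from desmogleins, desmocollins, plakoglobin, plakophilins and desmoplakin, anchor keratin filaments. Fibroblasts make few of these parts. The mesothelium, the sheet that lines the body cavities and covers the organs, makes many of them while it keeps mesenchymal genes. Transcription factors of the Snai and Zeb families bind E-boxes in epithelial promoters and repress them.

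Promoter sequence is shown for 4 of the 6 members that rose in +/- cells of both sets, chosen for that shared call, and for a pair that stayed under 1 RPM. Cxadr and Esrp2, the others that rose in both, had no entry. In Ras -/- the 4 did not move together, since F11r and Jup were called higher and Cgn and Pard6b lower. Of the 39 members, 26 had an entry among the RefSeq promoters (GRCm38.p6), and 14 of these were at 1 RPM or more. The 250 bases before the annotated start were searched on both strands for the E-box CACCTG, which reads CAGGTG on the other strand, for the AP-1 site TGANTCA and for the grainyhead site AACCNGTT, which reads AACNGGTT on the other strand. No match of 1 motif overlapped a match of another in the sequences shown, and capitals mark the matches. F11r lies on the + strand of chr1:171437311-171437560, Cgn on the - strand of chr3:94786483-94786732, Pard6b on the + strand of chr2:168080754-168081003 and Jup on the - strand of chr11:100397791-100398040. Epcam, under 1 RPM in every group, lies on the + strand of chr17:87635729-87635978, and Crb3, likewise, on the + strand of chr17:57061951-57062200 for the first of its 2 entries. Each is written from 5′ to 3′ on the strand of its gene.
F11r: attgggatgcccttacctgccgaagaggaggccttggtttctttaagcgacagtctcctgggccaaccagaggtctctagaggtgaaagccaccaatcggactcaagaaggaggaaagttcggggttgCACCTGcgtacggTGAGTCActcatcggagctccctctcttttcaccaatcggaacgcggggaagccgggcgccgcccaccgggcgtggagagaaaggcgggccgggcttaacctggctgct
Cgn: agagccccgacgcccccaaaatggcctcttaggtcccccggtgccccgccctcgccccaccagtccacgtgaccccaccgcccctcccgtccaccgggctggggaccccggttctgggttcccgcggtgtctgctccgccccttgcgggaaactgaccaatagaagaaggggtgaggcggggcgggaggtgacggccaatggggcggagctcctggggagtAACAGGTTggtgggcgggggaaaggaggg
Pard6b: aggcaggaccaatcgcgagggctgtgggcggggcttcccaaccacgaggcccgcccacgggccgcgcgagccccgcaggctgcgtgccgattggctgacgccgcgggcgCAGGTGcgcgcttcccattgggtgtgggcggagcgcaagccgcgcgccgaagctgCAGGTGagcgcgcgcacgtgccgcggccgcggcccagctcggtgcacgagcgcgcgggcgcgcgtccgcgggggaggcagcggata
Jup: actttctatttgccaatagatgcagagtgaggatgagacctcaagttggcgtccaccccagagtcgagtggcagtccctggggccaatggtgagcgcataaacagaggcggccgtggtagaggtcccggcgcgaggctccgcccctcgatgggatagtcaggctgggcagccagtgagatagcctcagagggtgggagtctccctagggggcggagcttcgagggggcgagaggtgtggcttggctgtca
Epcam: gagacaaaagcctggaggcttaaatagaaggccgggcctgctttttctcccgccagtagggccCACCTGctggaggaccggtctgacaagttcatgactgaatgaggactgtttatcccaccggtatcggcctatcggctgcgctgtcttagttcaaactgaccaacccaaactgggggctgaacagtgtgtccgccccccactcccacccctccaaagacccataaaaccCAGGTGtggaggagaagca
Crb3: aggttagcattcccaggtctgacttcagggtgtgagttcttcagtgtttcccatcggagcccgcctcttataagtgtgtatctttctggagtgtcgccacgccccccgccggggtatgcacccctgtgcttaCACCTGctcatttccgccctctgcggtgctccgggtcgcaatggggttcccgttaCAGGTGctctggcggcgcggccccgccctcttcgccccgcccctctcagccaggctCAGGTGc

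The E-box was found in 8 of the 12 members under 1 RPM with an entry and in 4 of the 14 at 1 RPM or more, against 19.4% of the 27025 genes with an entry. F11r held 1 E-box, 122 bases before the start, and an AP-1 match at 109 bases. Pard6b held 2 E-boxes, at 141 and 86 bases, Cgn a grainyhead match at 29 bases, and Jup none of the motifs. Among all 32851 promoter entries, the AP-1 letters were in 6.75% and the grainyhead letters in 1.79%. Epcam and Crb3 were chosen for display because they hold several E-boxes, 2 and 3. These matches describe letters in the windows and not binding.

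The number of members at 1 RPM or more differed between groups. It was 24 in immortalized +/-, against 18 in +/+ and 18 in -/-. In the Ras set it was 16 in +/-, 14 in +/+, 14 in -/- and 14 in the USP28 cells. Of the 24 members, 19 were highest in +/- among the immortalized groups. Of the 18 that reached 1 RPM in the Ras set, 12 were highest in +/-. These counts and shares are a description, since several members pass the 1 RPM rule only through +/-. How many of all genes reached 1 RPM in each group was not counted. Just inside the rule were Dsg2 at 1.08 RPM and Cldn1 at 1.09 RPM, both in immortalized +/-. Just outside were Ocln at 0.985 RPM in Ras +/- and Cldn3 at 0.811 RPM in immortalized +/-.

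**Figure D1:**
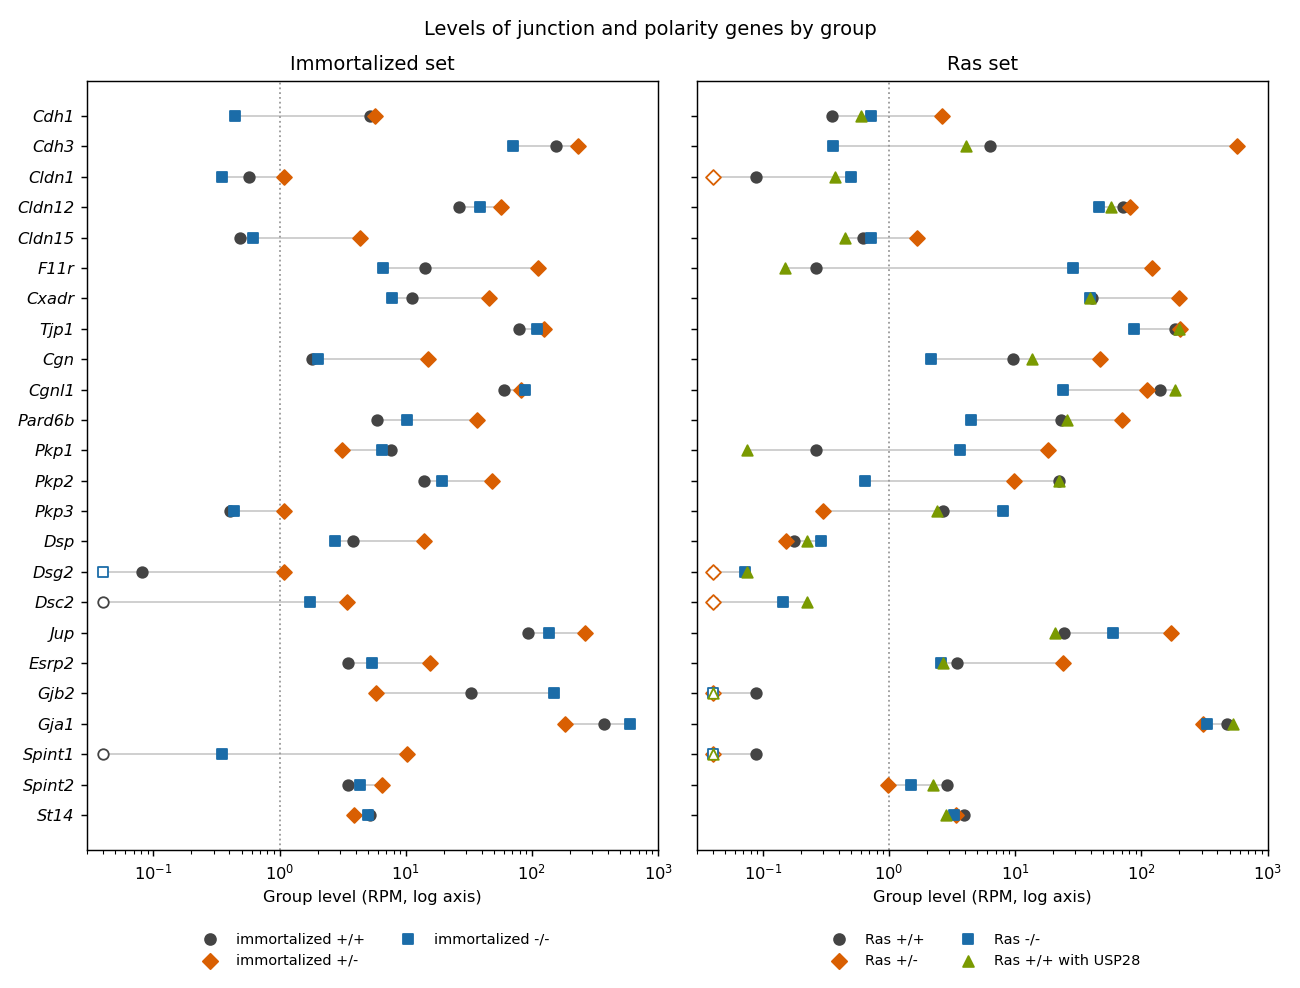
Level of each of the 24 members in the 3 immortalized groups (left) and the 4 Ras groups (right), in RPM on a log axis, 1 point a group, with no spread between libraries. Open symbols at the left edge stand for 0 reads, the dotted line is 1 RPM, and the +/- diamonds of F11r, Cxadr, Cgn, Pard6b, Jup and Esrp2 lie to the right of the other groups in both panels.

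Against +/+, 12 members passed an adjusted p under 0.05 in immortalized +/- (11 higher and 1 lower of 21 tested) and 13 in Ras +/- (9 higher and 4 lower of 18). The background was 8.25% of 17035 genes in immortalized +/- (5.04% higher, 3.21% lower) and 34.1% of 15950 in Ras +/- (17.5% higher, 16.7% lower). The members' median log2 ratio was 1.49 and 1.52, against -0.00 and 0.01 over all genes tested. The test took genes with a mean of 1 RPM or more over both groups, so some members entered through 1 group alone. Cldn15, Dsc2 and Spint1 in the immortalized set, and Cdh1, Cldn15, F11r and Pkp1 in the Ras set, entered through +/-. Pkp3 and Spint2 in the Ras set entered through +/+. The same rule applied in -/-. There Cdh1 in the immortalized set and Cdh3 and Pkp2 in the Ras set entered through +/+. F11r and Pkp1 in the Ras set entered through -/-. The counts and medians are therefore a description in +/- and in -/-. In -/- the calls were fewer in the immortalized set, with 1 higher and 3 lower of 18, against a background of 4.21% (1.29% higher, 2.93% lower) and medians of 0.40 for members and 0.07 for all genes. In Ras -/- they were 4 higher and 8 lower of 16, against a background of 27.6% (15.2% higher, 12.4% lower) and medians of -0.58 and -0.01. Of the 24 members, 21 were called in at least 1 comparison with +/+, and 8 of them in both directions. The same pooled counts were not made over all genes, so these have no background to be set against. Calls rest on the authors' deposited p-values, which behave as if every gene of a comparison had 1 shared dispersion, so a gene that varied more between libraries than most is not held to its own spread. The standard errors (SE) below come from that shared dispersion. With a dispersion 2 times as large the calls of Cdh3 and F11r in immortalized -/-, Jup in immortalized +/-, Cldn12 and Gja1 in Ras -/- and Gja1 in Ras +/- were lost, at adjusted p between 0.0774 and 0.241.

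F11r and Cxadr, membrane proteins of the tight junction, were both higher in +/- cells of both sets. F11r encodes JAM-A, an immunoglobulin-like adhesion protein. Its level was 14.2 RPM in immortalized +/+, 112 in +/- and 6.61 in -/-. The +/- level was 7.82-fold that of +/+ (log2 2.97, SE 0.39, adjusted p = 2.27e-10), and the -/- level was lower (log2 -1.10, SE 0.32, adjusted p = 0.0153). In the Ras set F11r was all but absent from +/+, with 0.265 RPM from 3 reads, and from the USP28 cells, with 0.149 RPM from 2 reads. It reached 121 RPM in Ras +/- and 28.6 in -/-. From so few +/+ reads the log2 ratio was 8.84 in +/- with a counting interval of 7.30 to 11.1 (adjusted p = 1.09e-93), and 6.76 in -/- with an interval of 5.20 to 9.05 (adjusted p = 6.69e-44). F11r thus fell in -/- of the immortalized set and rose in -/- of the Ras set. Cxadr, the coxsackievirus and adenovirus receptor, stood at 11.3 RPM in immortalized +/+, 45.4 in +/- and 7.81 in -/-. The Ras levels were 40.4 RPM in +/+, 198 in +/-, 38.9 in -/- and 39.2 in the USP28 cells, so that only the +/- group stood apart. In immortalized +/- its log2 ratio was 2.00 (SE 0.40, adjusted p = 4.97e-05). For Ras +/- the ratio came to 2.30 (SE 0.22, adjusted p = 3.44e-23). Exons of Cxadr overlap Btg3 and Gm49590 on the opposite strand, and the labels name no strand-specific kit, so their reads cannot be told apart. Btg3 itself had a log2 ratio of 0.55 (adjusted p = 0.72) and -0.08 (adjusted p = 0.84) in the 2 comparisons.

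Per kb of exon, F11r made up 59.5% of the summed level of F11r, Jam2, Jam3, Cxadr and Clmp in Ras +/- and 57.9% in immortalized +/-. Its share was 18.1% in immortalized +/+, 10.6% in -/-, 1.0% in Ras +/+, 39.7% in -/- and 0.5% in the USP28 cells. Occludin (Ocln) and tricellulin (Marveld2), the other membrane proteins of this group on the list, stayed under 1 RPM in all groups.

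Among the adaptors below the tight junction membrane, cingulin (Cgn) was higher in +/- of both sets, as F11r and Cxadr were. Its level was 1.81 RPM in immortalized +/+, 15.1 in +/- and 2.01 in -/-, and 9.64, 46.9 and 2.15 RPM in the same order in the Ras set, with 13.48 in the USP28 cells. It rose in immortalized +/- by a log2 ratio of 3.05 (SE 0.50, adjusted p = 5.81e-08). Ras +/- cells gave 2.28 (SE 0.25, adjusted p = 3.04e-18). In Ras -/- it fell by 2.16 on the log2 scale (SE 0.36, adjusted p = 1.53e-08). Its relative Cgnl1 (paracingulin) went with it only in Ras -/-, where 141 RPM in +/+ became 23.9 (log2 -2.56, SE 0.22, adjusted p = 1.59e-26). Elsewhere Cgnl1 was at 112 RPM in Ras +/-, 186 in the USP28 cells and 59.9, 82.3 and 88.9 RPM in immortalized +/+, +/- and -/-, none of them a call. Tjp1 (ZO-1), the scaffold to which claudins bind, was likewise lower only in Ras -/-, with 88.1 RPM against 186 in +/+, 201 in +/- and 200 in the USP28 cells (log2 -1.08, SE 0.21, adjusted p = 5.9e-06). In the immortalized groups Tjp1 ran from 79.2 to 125 RPM. Tjp3 (ZO-3) stayed under 1 RPM. All 3 expressed adaptors were therefore called lower in Ras -/-. Per kb, Cgn was 35.4% of the summed cingulin level in Ras +/- and 2.9% to 19.3% in the others.

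Pard6b encodes a PAR6 adaptor that links atypical protein kinase C to the PAR polarity complex. It moved as Cgn did: 5.90 RPM in immortalized +/+, 37.0 in +/- and 10.3 in -/-, then 23.1, 70.8 and 4.44 RPM in Ras +/+, +/- and -/-, with 25.9 in the USP28 cells. The +/- group was highest in each set, and -/- was lowest in the Ras set. Its log2 ratio was 2.65 in immortalized +/- (SE 0.42, adjusted p = 7.18e-08) and 1.62 in Ras +/- (SE 0.23, adjusted p = 2.94e-11). In Ras -/- it was -2.38 (SE 0.29, adjusted p = 3.29e-15). Crb3, the crumbs protein of simple epithelia, did not exceed 0.454 RPM in any group.

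The claudins of these cells were in the main Cldn12. Per kb it held 69.6% to 96.0% of the summed level of 21 claudins in each group. Its level was 26.7, 57.3 and 38.9 RPM in immortalized +/+, +/- and -/-, and 71.2, 81.8, 46.0 and 57.8 RPM in Ras +/+, +/-, -/- and USP28 cells. Only the Ras -/- difference was a call (log2 -0.63, SE 0.22, adjusted p = 0.0196). Cldn15, a pore-forming claudin, was at 0.486 RPM in immortalized +/+, 4.32 in +/- and 0.614 in -/-, a log2 ratio of 3.16 in +/- (SE 0.73, adjusted p = 6.09e-05). In Ras +/- it was 1.66 RPM against 0.620 in +/+ and missed the threshold (log2 1.42, SE 0.66, adjusted p = 0.0905). Cldn1 was never called, with at most 1.09 RPM. Cldn3, Cldn4, Cldn7, Cldn10 and Cldn11 had some reads but less than 1 RPM in every group, and Cldn6 and Cldn23 had 0 reads in all 7 groups, where a limit of 3 reads is at most 0.264 RPM. The highest of these was Cldn3 with 0.811 RPM in immortalized +/-, against 0 reads in +/+.

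**Figure D2:**
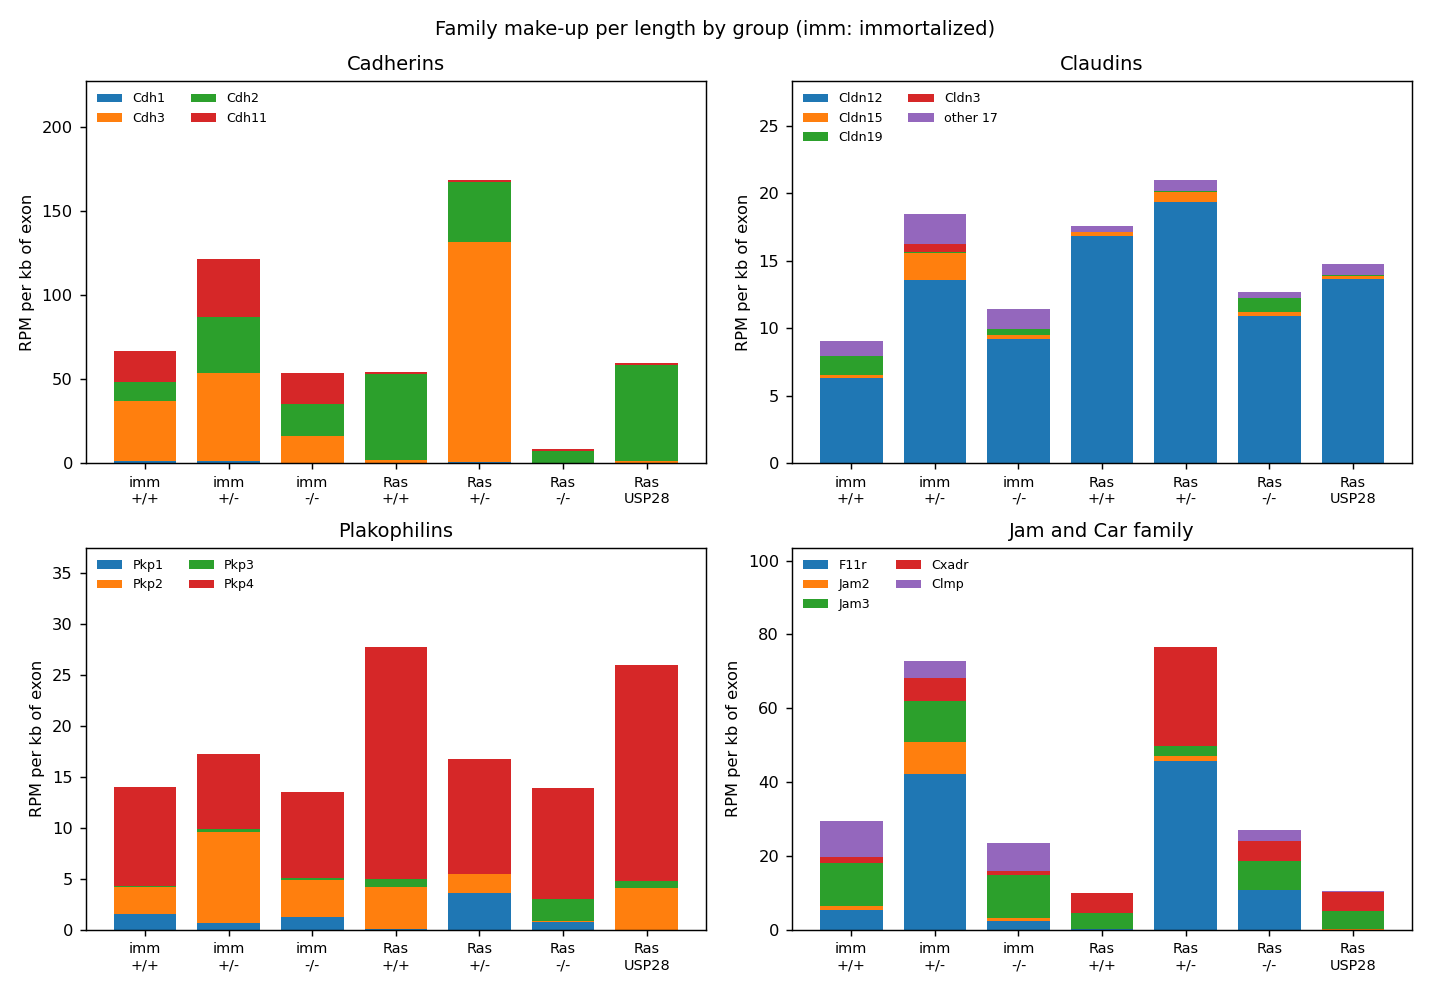
Summed level per kb of exon, in RPM per kb, of 4 families in the 7 groups, stacked by gene from the group levels, with no spread between libraries. Cdh3 is 77.8% of the cadherins shown in Ras +/- and 1.0% in Ras -/-, Cldn12 leads the claudins in every group, and F11r leads its family in both +/- groups.

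Cdh3 (P-cadherin) was at 155 RPM in immortalized +/+, 230 in +/- and 70.6 in -/-. Ras cells had 6.35 RPM in +/+, 574 in +/-, 0.358 in -/- and 4.10 in the USP28 cells. Within the Ras set +/- was far above, and -/- below, the other groups. The Ras +/- level was 90.3-fold that of +/+ (log2 6.50, SE 0.27, adjusted p = 2.42e-115), while the Ras -/- level was lower than +/+ (log2 -4.15, SE 0.70, adjusted p = 5.12e-13). In the immortalized set -/- was lower (log2 -1.14, SE 0.25, adjusted p = 0.000695), and +/- did not pass the test (log2 0.56, SE 0.38, adjusted p = 0.656). Cdh3 was the only member called lower in -/- of both sets. Cdh1 (E-cadherin), the main epithelial cadherin, was lower than Cdh3 per kb in every group except Ras -/-. It was at 5.22 RPM in immortalized +/+, 5.73 in +/- and 0.440 in -/-, where 5 reads remained (log2 -3.57, SE 0.71, adjusted p = 2.33e-07). In Ras cells it was at 0.352 RPM in +/+, 2.65 in +/-, 0.717 in -/- and 0.596 in the USP28 cells, and only +/- could be tested (log2 2.91, SE 0.79, adjusted p = 0.000134). Epcam, an adhesion protein of simple epithelia, reached no more than 0.263 RPM.

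Within the 4 cadherins Cdh1, Cdh2 (N-cadherin), Cdh3 and Cdh11, Cdh3 held 53.3%, 43.2% and 30.2% of the level per kb in immortalized +/+, +/- and -/-. Its Ras shares were 2.7% in +/+, 77.8% in +/-, 1.0% in -/- and 1.6% in the USP28 cells. Cdh2 held 94.9% in Ras +/+ and 86.3% in -/-. It fell in level as well, from 415 RPM in Ras +/+ to 56.8 in -/- (log2 -2.87, SE 0.21, adjusted p = 9.67e-35), so that the 4 cadherins together were at 8.16 RPM per kb in Ras -/- against 54.2 in +/+ and 168 in +/-. In Ras +/- Cdh2 was also called lower, at 287 RPM. In immortalized +/- it was called higher, at 266 RPM against 93.9 in +/+, and Cdh11 was at 310 against 163 RPM with no call.

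Of the desmosomal members, Jup (plakoglobin), which also sits at adherens junctions, was at 92.9 RPM in immortalized +/+, 261 in +/- and 137 in -/-, and at 24.5, 173, 59.3 and 20.8 RPM in Ras +/+, +/-, -/- and USP28 cells. It rose in +/- of the immortalized set (log2 1.49, SE 0.38, adjusted p = 0.00258), in Ras +/- (log2 2.81, SE 0.22, adjusted p = 4.9e-32) and in Ras -/- (log2 1.27, SE 0.23, adjusted p = 5.54e-07). The plakophilins, armadillo proteins that join the plaque, differed from each other. Pkp2 was at 14.0 RPM in immortalized +/+, 48.2 in +/- and 19.4 in -/-, and at 22.3, 9.70, 0.645 and 22.1 RPM in Ras +/+, +/-, -/- and USP28 cells. It was called higher in immortalized +/- (log2 1.78, SE 0.40, adjusted p = 0.000329) but lower in Ras +/- (log2 -1.20, SE 0.26, adjusted p = 2.49e-05), and lowest in Ras -/- (log2 -5.11, SE 0.53, adjusted p = 2.07e-36). Pkp3 was also lower in Ras +/- but higher in Ras -/-. It went from 2.69 RPM in +/+ to 0.302 in +/- (log2 -3.15, SE 0.79, adjusted p = 1.75e-05) and 7.96 in -/- (log2 1.56, SE 0.36, adjusted p = 5.94e-05), with 2.38 in the USP28 cells. In the immortalized groups Pkp3 was between 0.408 and 1.08 RPM. Pkp1 was at 0.266 RPM from 3 reads in Ras +/+, 18.2 in +/-, 3.66 in -/- and 0.0745 in the USP28 cells. Its log2 ratios were 6.10 (counting interval 4.55 to 8.40, adjusted p = 1.04e-31) and 3.78 (2.17 to 6.12, adjusted p = 5.56e-07), while in immortalized cells it was at 7.71, 3.13 and 6.52 RPM in +/+, +/- and -/- with no call.

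Dsp (desmoplakin), the link to keratin filaments, was at 3.83 RPM in immortalized +/+, 13.9 in +/- and 2.73 in -/- (in +/- log2 1.88, SE 0.45, adjusted p = 0.000722). It had 2 to 4 reads in each Ras group. Dsc2 (desmocollin) had 0 reads in immortalized +/+, 42 reads or 3.42 RPM in +/- and 1.75 RPM in -/-. Against 3 reads over the +/+ group, it was at least 13.9-fold higher in +/- (adjusted p = 1.2e-07). Dsg2 (desmoglein) was at 1.08 RPM in immortalized +/- and at most 0.0813 RPM elsewhere. Exons of Dsp overlap Gm10129 and those of Dsg2 overlap Gm16090, both on the opposite strand, so their reads cannot be told apart. The 6 desmosomal cadherins Dsc1, Dsc2, Dsc3, Dsg1a, Dsg2 and Dsg3 together came to 0.839 RPM per kb in immortalized +/- and to 0 in Ras +/-. The plaque proteins that rose in Ras +/- (Jup and Pkp1) were therefore not accompanied by reads of these cadherins or by more of Dsp.

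Esrp2, a splicing regulator that favours epithelial isoforms, was the remaining member called higher in +/- of both sets. Its level was 3.49 RPM in immortalized +/+, 15.6 in +/- and 5.41 in -/-, and 3.45, 24.0, 2.58 and 2.68 RPM in Ras +/+, +/-, -/- and USP28 cells. Immortalized +/- gave a log2 ratio of 2.17 (SE 0.45, adjusted p = 7.13e-05). Ras +/- gave 2.80 (SE 0.32, adjusted p = 5.88e-19). Exons of Esrp2 overlap Nfatc3 and 1810019D21Rik on the other strand, and the log2 ratio of Nfatc3 was -0.19 and -0.37 in the same comparisons. Its paralog Esrp1 stayed under 1 RPM, and the epithelial transcription factor Elf3 had 0 reads in all 7 groups.

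Connexins form channels between neighbouring cells. Gjb2 (connexin 26) was at 33.0 RPM in immortalized +/+, 5.78 in +/- and 149 in -/-. It was lower in +/- (log2 -2.51, SE 0.42, adjusted p = 2.14e-07) and 4.50-fold higher in -/- (log2 2.17, SE 0.26, adjusted p = 3.64e-13). Ras cells had 1 read of it in +/+ and 0 in the other groups. Gja1 (connexin 43), the main connexin of fibroblasts, was at 370 RPM in immortalized +/+, 184 in +/- and 600 in -/-, the same order as Gjb2. Neither of those differences passed the test (adjusted p = 0.0943 and 0.0937). In Ras cells Gja1 was at 475 RPM in +/+, 306 in +/-, 328 in -/- and 529 in the USP28 cells, and was called lower in +/- (log2 -0.63, SE 0.21, adjusted p = 0.0087) and -/- (log2 -0.53, SE 0.21, adjusted p = 0.0412). The -/- call was lost with the authors' adjusted p of 0.0873, taken from the authors' deposited table.

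Among the membrane proteases, St14 (matriptase) stayed between 2.83 and 5.16 RPM in all 7 groups and was never called. The inhibitors of matriptase moved. Spint1 (HAI-1) had 0 reads in immortalized +/+, 127 reads or 10.3 RPM in +/- and 0.352 RPM in -/-, which made it at least 42.1-fold higher in +/- (adjusted p = 1.11e-15). In Ras cells it had 1 read in +/+ and 0 in the other groups. Spint2 (HAI-2) was at 3.46, 6.54 and 4.37 RPM in immortalized +/+, +/- and -/- with no call, and fell in Ras +/- from 2.90 to 0.985 RPM (log2 -1.56, SE 0.51, adjusted p = 0.012), with 1.51 in -/- and 2.23 in the USP28 cells. Prss8 (prostasin) did not exceed 0.303 RPM.

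The sets share no libraries. Whether the Ras cells were made from the same cultures as the immortalized set is not known here. Calls shared by both sets are therefore a description and not counted as a replication. Higher in +/- of both were Cgn, Cxadr, Esrp2, F11r, Jup and Pard6b, which is 54.5% of the 11 called higher in the immortalized and 66.7% of the 9 in the Ras set. Over all genes tested, 399 were called higher in both, which is 46.4% of the 859 in the immortalized and 14.3% of the 2787 in the Ras set. Pkp2 was called in opposite directions. In -/- of both sets Cdh3 was lower, and F11r was called in opposite directions.

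**Figure D3:**
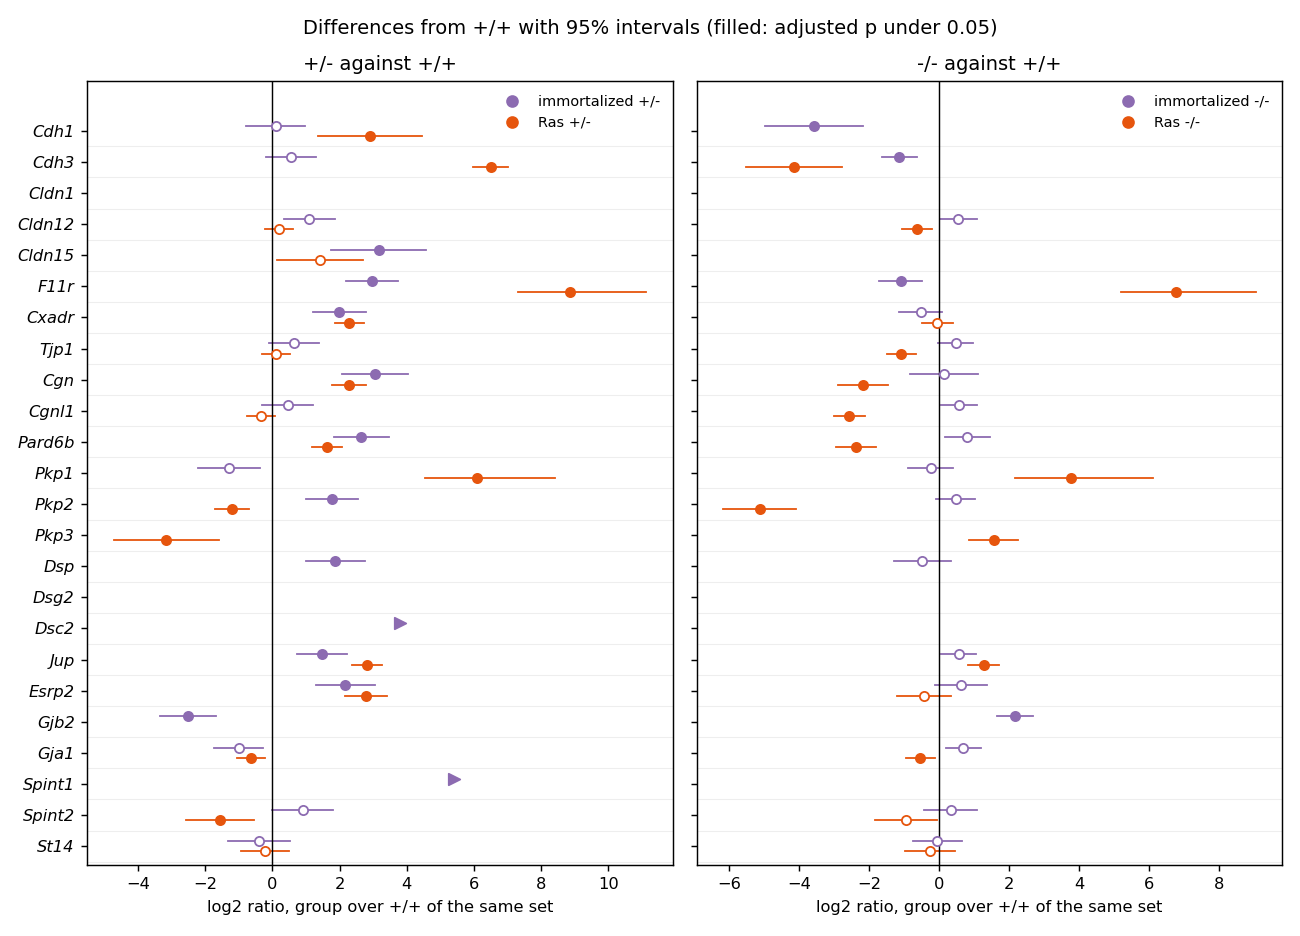
Log2 ratio of +/- (left) and -/- (right) to +/+ of the same set for the members tested, immortalized in purple and Ras in orange. Bars are 95% intervals from the SE (from counting error alone for F11r and Pkp1 in the Ras set), triangles are lower bounds for Dsc2 and Spint1, filled points passed the test, and Pkp2 and F11r show calls of opposite sign between the sets.

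Markers of other cell types moved with the +/- groups. Of 7 genes of the mesothelium (Msln, Upk3b, Upk1b, Lrrn4, Wt1, Bnc1 and Krt19), 6 were called higher in +/- of each set, and Msln was called lower in Ras +/-. The 7 together summed to 68.6 RPM in immortalized +/+, 1731 in +/- and 82.0 in -/-, and 497, 2127, 6.81 and 552 RPM in Ras +/+, +/-, -/- and USP28 cells. Upk3b, a uroplakin of the mesothelial surface, was at 508 RPM in immortalized +/- and 677 in Ras +/-, against 0.264 to 2.96 in the other groups. The simple epithelial keratins Krt7, Krt8 and Krt18 were all called higher in both +/- groups, with sums of 202 RPM against 3.05 in immortalized +/+ and 876 against 12.5 in Ras +/+. Of the 6 markers of stratified epithelium, Krt14 reached 146 RPM in immortalized +/- and 316 in Ras +/-, while Krt5 and Krt1 were at or near 0. Trp63 was at 0.471 RPM in immortalized +/- against 1.147 in +/+ and at 0.151 in Ras +/- against 0.982. Krt15 was at 0.162 against 0.899 RPM and at 0.831 against 0 RPM, and Krt10 between 1.31 and 4.09 RPM in all groups. Krt10 was called higher in Ras +/-, at 4.09 against 2.03 RPM in +/+, and was not called in immortalized +/-. Of the 8 fibroblast genes 1 was called higher and 1 lower in immortalized +/-, and of the 7 tested in Ras +/- 1 was higher and 3 lower. In -/- the mesothelial list had 1 call in each direction of 4 tested in the immortalized set and 2 lower of 2 tested in the Ras set. The fibroblast list had 3 lower of 8 tested and 4 higher of 7 tested, respectively. Over all genes tested, 8.25% were called in immortalized +/-, 34.1% in Ras +/-, 4.21% in immortalized -/- and 27.6% in Ras -/-. Endothelial markers summed to 4.09 to 19.4 RPM and leukocyte markers to 17.8 to 27.9 RPM in the 7 groups. Their part in the members' differences was not tested. In such bulk RNA fewer cells of a type and less RNA per cell cannot be told apart.

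The mesenchymal transition factors Snai1, Snai2, Zeb1, Zeb2, Twist1 and Twist2 were all expressed, with summed levels of 286 to 377 RPM in the immortalized and 181 to 304 RPM in the Ras groups. In Ras +/- 5 of the 6 were called lower and Snai1 higher, where 16.7% of all genes were called lower and 17.5% higher. Zeb1, which represses epithelial genes, was at 29.7 RPM in Ras +/- against 83.1 in +/+, 104 in -/- and 80.8 in the USP28 cells. In immortalized +/- 1 was called lower, Snai2, at 25.8 RPM against 63.7 in +/+, and Zeb1 was at 79.7 against 80.9 RPM. Only Snai2 was called lower in immortalized -/- and only Twist2 in Ras -/-. Their part in the members' differences was not tested.

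A further 69 genes of junctions and polarity, outside the 39, gave a mixed picture in the Ras set. In immortalized +/- 11 of 41 tested were called higher and 1 lower, and in Ras +/- 14 of 41 were higher and 13 lower. Crb2, a crumbs polarity protein, was the furthest up in both: from 0.898 to 129 RPM in immortalized +/- (log2 7.16, SE 0.58, adjusted p = 3.08e-34) and from 0.441 to 108 RPM in Ras +/- (log2 7.94, SE 0.68, adjusted p = 3.73e-87). Prkcz, an atypical protein kinase C that binds PAR6, rose in immortalized +/- (log2 3.97, SE 0.62, adjusted p = 8.02e-10), and Ppl (periplakin) in Ras +/- (log2 6.40, SE 0.48, adjusted p = 4.42e-71). Lower in Ras +/- were Prkci (log2 -1.42, SE 0.21, adjusted p = 4.27e-10) and Patj (log2 -1.12, SE 0.23, adjusted p = 8.31e-06). In immortalized +/- the gene called lower was Cldn19, with 2 reads left (log2 -5.25, counting error alone giving an upper end of -3.31, adjusted p = 3.13e-09). In -/- 1 was higher and 2 lower of 39 in the immortalized set, namely Plekha7 (log2 1.09, SE 0.33, adjusted p = 0.0204) against Ppl (log2 -1.80, SE 0.46, adjusted p = 0.00251) and Cldn19 (log2 -1.69, SE 0.43, adjusted p = 0.00527). In Ras -/- 3 were higher and 12 lower of 35, with Clmp (log2 4.75, SE 0.63, adjusted p = 1.55e-24) and Cldn19 among the former and Cdh2, given above, among the latter. Cldn19, lower in both immortalized comparisons, thus rose here, from 1 read in Ras +/+ to 59 in -/- (log2 5.58, counting interval 3.06 to 10.9, adjusted p = 1.07e-10). The backgrounds for these counts are those given with the members' calls, in the same order 5.04% higher and 3.21% lower, 17.5% and 16.7%, 1.29% and 2.93%, and 15.2% and 12.4%. Crb2 in both sets, Prkcz in immortalized +/- and Ppl in Ras +/- were under 1 RPM in +/+ and entered the test through +/-. Clmp and Cldn19 in Ras -/- entered through -/-, and Cldn19 in immortalized +/- entered through +/+. The counts over these genes are therefore a description, as for the members.

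Set directly against +/-, the -/- cells had lower levels of most called members. In the immortalized set 2 were higher and 10 lower of 21 tested, against a background of 4.75% (1.41% higher, 3.34% lower). The 2 higher were Gjb2 (log2 4.67, SE 0.48, adjusted p = 4.6e-19) and Gja1 (log2 1.70, SE 0.45, adjusted p = 0.00545). Among the lower ones were F11r (log2 -4.08, SE 0.48, adjusted p = 1.15e-14) and Cdh1 (log2 -3.58, SE 0.78, adjusted p = 0.000261). Spint1 was lower as well (log2 -4.70, SE 0.82, adjusted p = 1.44e-06), but it reached 1 RPM in the +/- group alone and so entered the test through it. Cdh1 and Cldn15 here, and Cdh1, Cdh3 and Pkp2 in the Ras set, were also under 1 RPM in -/- and entered through +/-. Pkp3 of the Ras set was under 1 RPM in +/- and entered through -/-. In the Ras set 1 was higher and 13 lower of 18, against a background of 24.8% (12.9% higher, 11.9% lower). Pkp3 was the member that was higher (log2 4.55, SE 0.75, adjusted p = 2.52e-08). The lower members of the Ras set included Cdh3, with 5 reads left in -/- (log2 -10.5, SE 0.68, adjusted p = 4.81e-51), Cgn (log2 -4.43, SE 0.39, adjusted p = 4.02e-27) and Pard6b (log2 -3.98, SE 0.35, adjusted p = 1.48e-28). Lower in both sets were Cdh1, Cdh3, F11r, Cxadr, Cgn, Pard6b and Esrp2. The call of Esrp2 in the immortalized set (adjusted p = 0.0481) was lost without the level filter, at 0.106, and that of Cldn12 in the Ras set (0.0255) likewise, at 0.0515. A doubled dispersion left 7 of the 12 immortalized calls. Each comparison of this kind shares its +/- libraries with the comparison of +/- with +/+, so it is no separate evidence for the +/- level. Eif2s3y also differed, at 14.9 RPM in immortalized -/- and 22.4 in Ras -/- against 0 and 0.151 in +/-, so embryo sex cannot be told apart from genotype here. The marker sums above fell along the same line, the mesothelial sum from 1731 to 82.0 RPM in the immortalized and from 2127 to 6.81 in the Ras set, and their part was not tested.

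The difference between the sets was tested as the log2 ratio in Ras minus that in immortalized cells. For -/- it was called in 11 of 19 members (3 higher, 8 lower), against a background of 19.9% (11.1% higher, 8.84% lower). For +/- it was called in 9 of 22 (5 higher, 4 lower), against 13.1% (6.62% higher, 6.49% lower). Of the 6 members called higher in +/- of both sets, the difference between the sets passed the test for F11r and Jup, and not for Cgn, Cxadr, Esrp2 and Pard6b. The sets differ in library number, in table and in the pWZL-GFP vector as well as in HRas, and their groups differ in Eif2s3y. It was present on both sides of the -/- comparison in the immortalized set and on the -/- side alone in the Ras set, and in the +/- comparison it was present in immortalized +/+ and near 0 in both Ras groups. These cannot be told apart from the effect of HRas.

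In the +/+ cells labelled as overexpressing USP28, 0 of 14 tested members were called by the deposited p of the authors' edgeR comparison, against a background of 1.09% (0.0907% higher, 0.997% lower). At an unadjusted p under 0.05 there was 1, Cgnl1, at 186 against 141 RPM (log2 0.40, SE 0.19, adjusted p = 0.98). Recomputing p from the recovered reads also gave 0. The log2 ratios of the 14 ran from -0.64 (Cdh3) to 0.48 (Cgn), and no end of their 95% intervals lay further than 1.25 from 0. F11r and Pkp1, high in Ras +/- and -/-, had 2 and 1 reads in the USP28 cells, close to the 3 and 3 of Ras +/+.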

How the data were processed

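Poly(A) RNA of 17 MEF libraries was sequenced on an Illumina Genome Analyzer IIx. Either of 2 NEBNext kits was used, and the labels do not say which library had which. Per the submitters' processing notes, the authors used CASAVA, FastQC, Bowtie 0.12.8, mm9 and edgeR. The authors deposited 1 table for each set. Per the file headers, a comparison has a log2 concentration, a log2 ratio (+/+ divided by the compared group) and p-values, with the authors' adjusted p-values in the Ras table only. The table without the overexpression comparison was taken as that of the immortalized set. Its 37576 IDs (35 repeated lines dropped) and the 33440 of the Ras table (24 dropped) were matched to symbols in GENCODE and RefSeq tables of GRCm38. Lengths and gene overlaps come from that annotation, which is another build than the authors' mm9.

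Here every log2 ratio has its sign changed, so that a value above 0 means more than in +/+. Levels in RPM were rebuilt from both log2 columns. Low values fall on steps of 1 read, which gave the summed depth of a group. Of the values under 20 reads, 79.6% to 100% were within 0.1 of a whole number. The 1 dispersion of each comparison was fitted to the deposited p-values with an exact negative binomial test. It corresponds to a coefficient of variation of 21.0% in immortalized -/-, 31.9% in +/-, 14.3% in Ras -/-, 14.1% in +/- and 12.5% for USP28. Rebuilt and deposited z values correlated across genes at 0.9986 to 0.99965, depending on the comparison. The dispersion gives each SE.

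Deposited p-values were adjusted by the Benjamini-Hochberg method over all genes with a mean of 1 RPM or more, and calls are at an adjusted p under 0.05. Comparisons of -/- with +/-, and between sets, are Wald tests with 0.5 reads added, adjusted likewise. A group at 0 reads is given as a bound against 3 reads over the group, and a group with 1 to 3 reads with a 95% Clopper-Pearson counting interval. Bounds and such intervals cover counting error only. Scripts were tested on simulated data (Python 3.11.15, scipy 1.17.1).

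Members and lists were chosen with earlier results of these data known. All members are accounted for, those called in a comparison with +/+ with values in full. Other junction genes are named if among the 2 with the largest change in a direction. A gene that this rule names is not reported here. The alternatives tried were the level filter, a threshold of 0.01, a doubled dispersion, centring, rebuilt p-values, the authors' adjusted p-values, 2 added reads, and limits of 0.5 and 2 RPM for members.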

Additional observations from a re-analysis of the deposited data

Results flagged for a closer look

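The following members responded differently in the 2 sets, by a Wald test of the log2 ratio in Ras minus that in immortalized cells at an adjusted p under 0.05, and had more than 3 reads in all 4 groups. For -/- against +/+, the difference was -5.509 for Pkp2, -3.169 for Pard6b, -3.127 for Cgnl1, -2.875 for Cdh3, -2.324 for Cgn, -1.559 for Tjp1, -1.232 for Gja1 and -1.18 for Cldn12, all lower in the Ras set. Of these 8, Cdh3 was lower in -/- of both sets. Cdh1 was the reverse, at 4.37, with 4 reads in Ras +/+.

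For +/- against +/+, the difference was 5.93 for Cdh3, 2.668 for Cdh1 and 1.324 for Jup, higher in the Ras set. It was -4.31 for Pkp3, with 4 reads in Ras +/-, -2.977 for Pkp2 and -2.424 for Spint2, lower in the Ras set. F11r, Pkp1 and Spint1 also passed a test of this kind, with 3 or fewer reads in a group.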

How the results depend on the processing

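No paired analysis was possible because the tables hold no values for single libraries, and leaving out each replicate could not be run for the same reason. With the dispersion doubled, the called members fell from 4 to 2 in immortalized -/- against +/+ and from 12 to 7 in immortalized -/- against +/-. The other 46 recomputed counts of called members stayed within 1.5 times. Among the single members 436 recomputed results kept their side of the threshold, 30 lost their call (16 with the doubled dispersion, 9 at 0.01, 3 without the level filter, 1 by the authors' adjusted p and 1 with 2 reads added), 1 gained it and 0 changed direction. The gain was Dsc2 in immortalized -/- without the level filter (adjusted p = 0.000597). Calls lost with the doubled dispersion include Cdh3 (adjusted p = 0.0774) and F11r (0.222) in immortalized -/- and Jup (0.117) in immortalized +/-. Limits of 0.5 and 2 RPM gave 28 and 22 members. Over all genes the doubled dispersion lowered the calls from 705 to 299 in immortalized -/-, 1406 to 823 in immortalized +/-, 4381 to 2636 in Ras -/-, 807 to 390 and 3996 to 2461 in -/- against +/-, and 3355 to 1859 and 2236 to 1174 between sets (-/- and +/-). At 0.01 they were 424 in immortalized -/- and 2171 and 1398 between sets. Centring on the median gene turned the 215 higher and 490 lower genes of immortalized -/- into 147 and 574.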
